A study of Mus musculus with 18 samples.

Results

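The serpin protease inhibitor genes of the mouse were followed from embryonic stem cells (ESC) to embryoid bodies (EB), the floating aggregates in which ESC start to differentiate, and to adult tissue. Members were all genes whose symbol is Serpin with a clade letter and a number, apart from Serpinh1, whose product is a collagen chaperone and not an inhibitor. The arrays carried 50 such genes on 56 probes, among 19141 named genes. The ESC were of the MES3 line (C57BL crossed with CBA), a single line grown with LIF on mouse embryonic fibroblasts that mitomycin C had stopped from dividing. EB of 3 and 7 days were made by cutting ESC colonies into pieces and moving these to low-adhesion plates without LIF and beta-mercaptoethanol. The adult samples were labelled only as adult tissue cells, with no tissue named. On the UniSet Mouse 20K product there were 1 ESC, 2 3-day EB, 2 7-day EB and 2 adult samples, and on the Mouse Whole Genome product 1 ESC, 1 3-day EB and 1 7-day EB sample. The labels name no allele, transgene or drug that set the groups apart. The feeders were part of the ESC culture, so ESC samples could hold fibroblasts.

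Most serpins act as single-use traps: a protease cuts an exposed loop, the serpin snaps into another shape, and the enzyme stays bound and distorted. Clade A members are mainly secreted, many of them by the liver into plasma (alpha-1-antitrypsin, antichymotrypsin and carrier proteins for hormones), while clade B members work mostly inside cells and guard against leaked cathepsins and granzymes. Clades C, D, E, F, G and I hold antithrombin, heparin cofactor II, protease nexin-1, PEDF with alpha-2-antiplasmin, C1 inhibitor and neuroserpin. In the mouse, the clade A genes for alpha-1-antitrypsin and antichymotrypsin and several clade B genes have multiplied into close copies that sit side by side. By RefSeq's table, 18 members lay on chromosome 12, 13 on chromosome 1 and 12 on chromosome 13. Near-identical copies can bind each other's probes, so values of Serpina1b to Serpina1e, of the Serpina3 genes and of Serpinb9e and Serpinb9g are uncertain as to the copy.

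Of the 50 genes, 41 had values on both products, 7 on the Whole Genome product alone (Serpina3f, Serpina4-ps1, Serpinb10, Serpinb1c, Serpinb3b, Serpinb3c and Serpinb9d) and 2 on UniSet 20K alone (Serpina1d and Serpina6). All levels are log2 intensities after quantile normalization within a product, and a level is compared only with other levels of the same probe on the same product. The scanner marked each spot as above or below background. The floor was 1.83 on UniSet 20K and 2.47 on the Whole Genome product, and values there have no order. On UniSet 20K, ESC and EB arrays had 27.7 to 36.2% of their gene probes above background and adult arrays 52.6 to 57.8%, against 60.5 to 72.0% on Whole Genome arrays. The lowest signal above background stood at 4.11 to 4.86 on the ESC and EB arrays of UniSet 20K and at 2.94 to 3.20 on the adult ones. A serpin can therefore be measured in adult tissue at a level that ESC and EB arrays could not have shown. Among the pluripotency markers, none of 11 tested was lower in 7-day EB than in ESC and 1 was higher, while 9 of 11 were higher in 7-day EB than in adult tissue. Of all genes tested, 1.81% were higher in 7-day EB than in ESC and 29.5% higher than in adult tissue. The labels do not say that replicates were separate cultures, so the spread behind each p-value may be technical and is that of these samples alone. In such bulk RNA, fewer cells of a type and less RNA per cell cannot be told apart.

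Promoter windows from RefSeq (build GRCm38.p6, up to 300 bases around a gene's start) existed for 41 members. A pair is shown for genes that were lower in 7-day EB than in ESC, with matches to any of 4 motifs on either strand in capitals: the TATA box (TATAAA), the CCAAT box (letters as named), the GC box (GGGCGG) and a half-site of the liver factor HNF1 (GTTAAT).
Serpinf1, chr11:75422574-75422873, minus strand: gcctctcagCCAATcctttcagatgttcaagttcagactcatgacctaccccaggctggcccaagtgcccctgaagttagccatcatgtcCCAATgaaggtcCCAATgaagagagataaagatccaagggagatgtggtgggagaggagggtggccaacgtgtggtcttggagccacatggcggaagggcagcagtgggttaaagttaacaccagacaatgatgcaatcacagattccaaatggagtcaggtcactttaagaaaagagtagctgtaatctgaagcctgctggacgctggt
Serpini1, chr3:75557243-75557542, plus strand: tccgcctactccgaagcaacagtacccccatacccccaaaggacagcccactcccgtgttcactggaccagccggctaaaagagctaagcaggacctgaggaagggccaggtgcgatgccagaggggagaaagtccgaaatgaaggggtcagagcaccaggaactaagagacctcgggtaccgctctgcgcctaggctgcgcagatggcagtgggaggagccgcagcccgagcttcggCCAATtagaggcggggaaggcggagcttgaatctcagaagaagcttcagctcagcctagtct
Each of these windows held CCAAT, which stood in 37.4% of all 32851 windows, and neither held TATAAA (13.6% of all), GGGCGG (35.7%) or GTTAAT (7.1%). The Serpini1 window had 60.0% G and C bases with 15 CpG, against 50.7% and 3 CpG for Serpinf1. Serpinb6a, the third gene lower in 7-day EB, has 2 windows that are not printed. The one at chr13:34002745-34003044 held no CCAAT, 3 GC boxes and 25 CpG, and the other CCAAT once, no GC box and 5 CpG. The next gene upstream of Serpini1 is Pdcd10, which is read in the other direction.

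Serpinb9e and Serpinb9g appear below because, on the Whole Genome product, both were above background on both 7-day arrays and on no ESC array. Their windows matched without gaps at 284 of 296 bases (95.9%), and capitals mark the 12 bases that differ.
Serpinb9e, chr13:33249362-33249657, plus strand: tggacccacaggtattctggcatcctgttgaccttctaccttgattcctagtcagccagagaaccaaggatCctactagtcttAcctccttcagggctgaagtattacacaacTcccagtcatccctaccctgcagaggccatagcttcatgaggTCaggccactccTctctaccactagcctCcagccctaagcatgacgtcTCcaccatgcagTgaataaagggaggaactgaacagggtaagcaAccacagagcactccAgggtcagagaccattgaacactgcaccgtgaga
Serpinb9g, chr13:33484540-33484835, plus strand: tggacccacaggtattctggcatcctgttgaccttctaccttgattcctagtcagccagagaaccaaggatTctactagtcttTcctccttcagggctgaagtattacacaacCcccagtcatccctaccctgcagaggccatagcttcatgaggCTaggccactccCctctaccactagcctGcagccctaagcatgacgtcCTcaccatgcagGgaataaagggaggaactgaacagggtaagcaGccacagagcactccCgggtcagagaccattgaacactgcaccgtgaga
The last set is from the alpha-1-antitrypsin genes, which by at least 1 probe were above background on both adult arrays. All their probes were below it on the UniSet 20K arrays of ESC and EB. The stretch around GTTAAT is shown with CCAAT and GTTAAT in capitals. One CCAAT match, read on the other strand as ATTGG, shares a base with GTTAAT.
Serpina1b, chr12:103738190-103738245, minus strand: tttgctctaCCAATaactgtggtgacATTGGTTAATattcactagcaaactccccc
Serpina1d, chr12:103773624-103773679, minus strand: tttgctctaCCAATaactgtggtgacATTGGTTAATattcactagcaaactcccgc
Serpina1c, chr12:103904952-103905007, minus strand: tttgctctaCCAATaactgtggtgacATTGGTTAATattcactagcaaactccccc
Serpina1e, chr12:103956950-103957005, minus strand: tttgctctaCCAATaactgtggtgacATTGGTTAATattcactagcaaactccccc
GTTAAT was present in the windows of 8 of the 41 members. A match describes the letters in the window and was not tested as a binding site.

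In the ESC and EB comparisons, 9 members passed the filter, which asked for signal above background on every array of at least 1 group. They were Serpinf1, Serpini1, Serpinb6a, Serpinb6c, Serpinb9b, Serpinb1a, Serpine2, Serpina11 and Serpina12. In 7-day EB, Serpinf1, Serpini1 and Serpinb6a fell relative to ESC and no member rose, while 6 did not pass the test. Across all genes tested, 5.17% were called in that comparison, 3.36% as lower and 1.81% as higher (limma with product as a term, 8 samples, Benjamini-Hochberg adjusted p under 0.05). The median log2 difference was -0.43 over the 9 members and 0.04 over all 6281 genes tested. In 3-day EB only Serpinf1 of the 9 was called, lower than in ESC, where 3.01% of all genes were called (2.28% as lower and 0.732% as higher), and the medians were -0.19 and 0.06. Between 7-day and 3-day EB limma called none of the 9, 3 had an unadjusted p under 0.05, and 0.111% of all genes were called (0.0478% as higher and 0.0637% as lower).

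Serpinf1 encodes PEDF, a secreted serpin that does not inhibit proteases and restrains blood vessel growth. On UniSet 20K its level was 6.36 in the ESC sample, 4.18 and 5.14 in 3-day EB and 4.57 and 4.84 in 7-day EB. The Whole Genome values were 11.61 in ESC, 7.41 in 3-day EB and 8.17 in 7-day EB. ESC stood above every EB sample on both products, and 3 of the 4 UniSet 20K EB samples reached the background: both arrays of 3-day EB replicate 1 lay below it, as did 1 of 2 arrays of 3-day EB replicate 2 and of 7-day EB replicate 1. The log2 difference was -2.79 ± 0.53 (SE) for 3-day EB minus ESC, with limma adjusted p = 0.0355. For 7-day EB minus ESC it was -2.51 ± 0.53, with limma adjusted p = 0.0384 and a 95% interval of -3.72 to -1.29. By product, 7-day EB minus ESC was -1.65 on UniSet 20K and -3.44 on the Whole Genome product. Without ESC replicate 2, the Whole Genome sample, the 7-day difference was -1.53 (limma adjusted p = 0.192) and the 3-day difference -1.82 (limma adjusted p = 0.208). Serpinf1 passed the filter only through ESC, the group in which it was highest. With no filter on dim probes both calls were lost (limma adjusted p = 0.0795 at 3 days and 0.0844 at 7 days).

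Serpini1 encodes neuroserpin, an inhibitor of tissue-type plasminogen activator best known from neurons. Its level was 6.29 in the ESC sample, 5.74 and 6.03 in 3-day EB and 4.25 and 5.11 in 7-day EB on UniSet 20K. It was 7.65 in ESC, 7.68 in 3-day EB and 6.67 in 7-day EB on the Whole Genome product, where 1 of the 2 ESC arrays was masked and the other stands for the sample. The 3-day EB samples lay close to ESC and the 7-day samples below both, with 7-day EB replicate 1 below background on both its arrays. The difference was -1.33 ± 0.29 for 7-day EB minus ESC (limma adjusted p = 0.0421) and -0.19 ± 0.29 for 3-day EB minus ESC (limma adjusted p = 0.761). For 7-day minus 3-day EB it was -1.14 ± 0.26, with limma adjusted p = 0.169. Pdcd10, its upstream neighbour, measured 5.13 in the ESC sample, 5.23 and 5.15 in 3-day EB and 5.39 and 5.33 in 7-day EB on UniSet 20K. Its 7-day EB minus ESC difference was 0.17 ± 0.25 (limma adjusted p = 0.722). The second Serpini1 probe was below background on every array.

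Serpinb6a encodes an intracellular inhibitor of cathepsin G and other serine proteases. Its level was 9.29 in the ESC sample, 8.53 and 8.78 in 3-day EB and 8.53 and 8.55 in 7-day EB on UniSet 20K, and 11.92 in ESC, 11.36 in 3-day EB and 10.68 in 7-day EB on the Whole Genome product. All EB samples lay below ESC on both products, above background on every array. The difference was -0.94 ± 0.21 for 7-day EB minus ESC (limma adjusted p = 0.0479) and -0.64 ± 0.21 for 3-day EB minus ESC (limma adjusted p = 0.169). Its other probe, on the Whole Genome product alone, was below background on all 6 arrays.

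**Figure D1:**
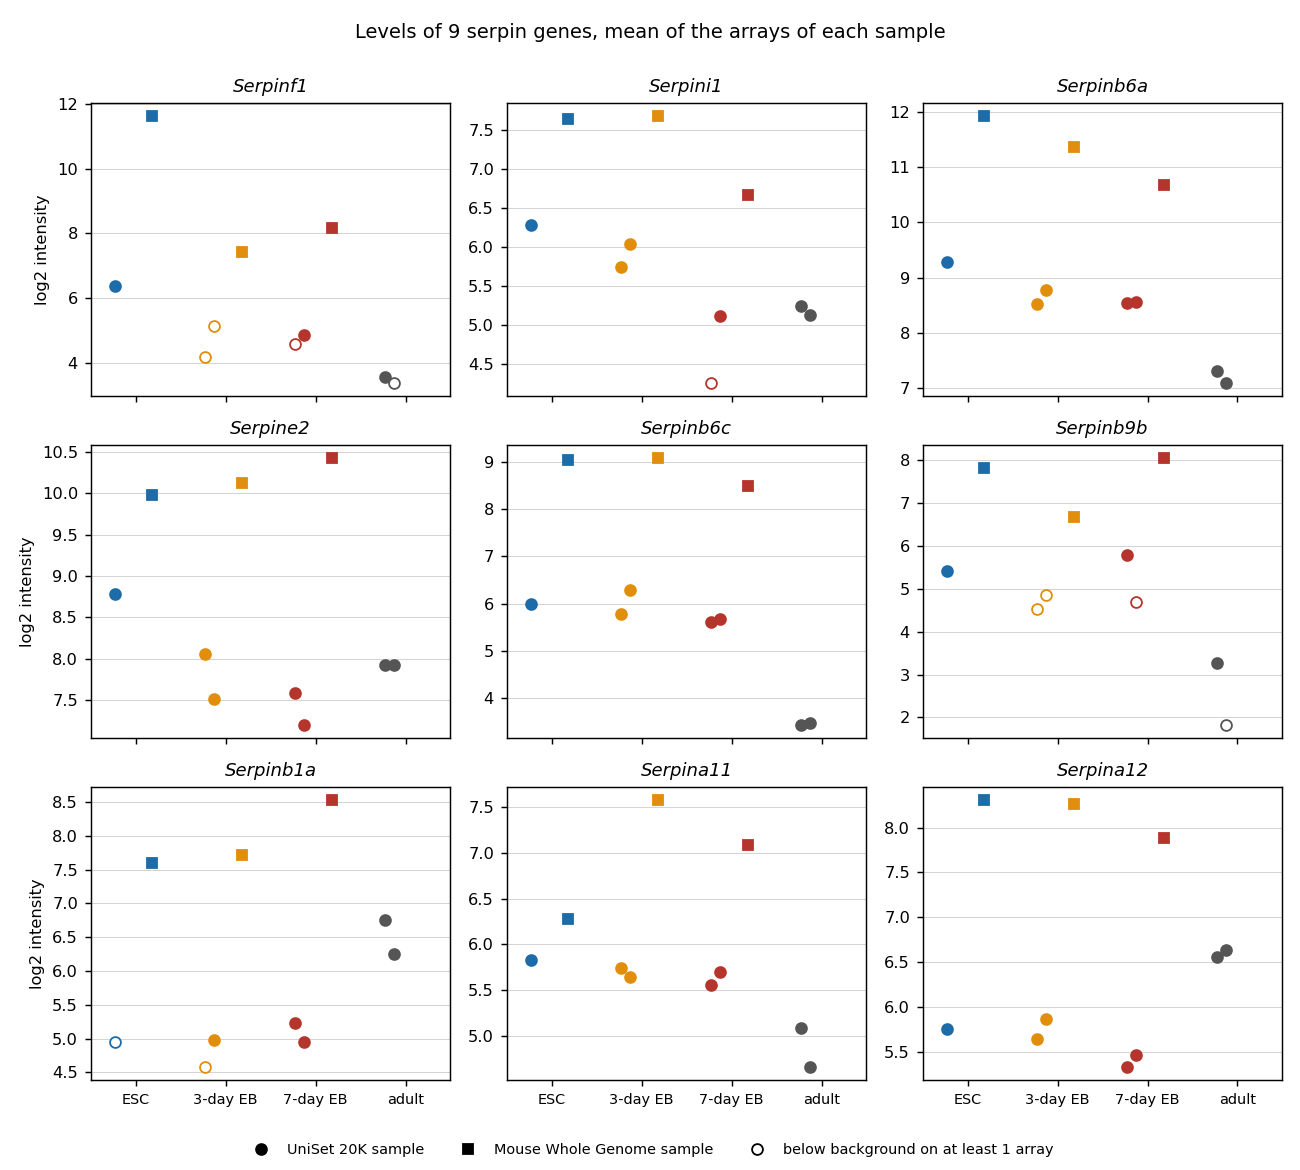
Log2 intensity of 9 serpin genes in each sample (mean of its arrays) for ESC, 3-day EB, 7-day EB and adult tissue, with circles for UniSet 20K, squares for Mouse Whole Genome and open symbols where at least 1 array was below background. Serpinf1 and Serpinb6a are highest in ESC on each product, and heights compare only within a panel and a product.

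Each of these calls was lost in some alternative fits. With the date on which a file was exported as a block, limma adjusted p was 0.141 for Serpinf1, 0.100 for Serpini1 and 0.152 for Serpinb6a. The 7-day EB sample of the Whole Genome product had an export date of its own, which cannot be told apart from its group there. The 3-day call of Serpinf1 gave limma adjusted p = 0.0707 with that block and 0.417 on UniSet 20K alone (a log2 difference of -1.70). UniSet 20K samples alone, which share 1 date, gave 7-day log2 differences of -1.65, -1.61 and -0.75 for Serpinf1, Serpini1 and Serpinb6a, with limma adjusted p of 0.233, 0.224 and 0.265. For 7-day EB against ESC, and also for 3-day EB against ESC, Serpinf1 stayed called without ESC replicate 1, 3-day EB replicate 2 or 7-day EB replicate 2, and lost its call without any 1 of the other 5 samples, with limma adjusted p from 0.0542 to 0.192 at 7 days and from 0.0671 to 0.241 at 3 days. Serpini1 stayed called only without 7-day EB replicate 2, and Serpinb6a lost its call without any 1 of the 8 samples (limma adjusted p from 0.0503 to 0.232).

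Of 28 markers of feeder fibroblasts, 23 were tested, 10 were lower in 7-day EB than in ESC and none was higher, with a median of -2.84. Of all genes tested there, 3.36% were lower and 1.81% higher. Col6a2, a collagen VI chain, changed by -4.21 ± 0.38 (limma adjusted p = 0.00314). The summed intensity of the list was 12064 in ESC, 4353 and 3577 in 3-day EB and 5252 and 3074 in 7-day EB on UniSet 20K. On the Whole Genome product it was 99125 in ESC, 30588 in 3-day EB and 39112 in 7-day EB. In ESC, 23 of 27 markers were above background on every UniSet 20K array, all but Col1a1, Fap, Lum and Thbs1, and 27 of 28 on every Whole Genome array, all but Fap. The part of the feeders in the levels of Serpinf1, Serpini1 and Serpinb6a was not tested.

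The other 6 members showed differences from ESC that did not pass the test. Serpine2 encodes protease nexin-1, a secreted inhibitor of thrombin and plasminogen activators. Its level was 8.78 in the ESC sample, 8.06 and 7.52 in 3-day EB and 7.59 and 7.21 in 7-day EB on UniSet 20K, and 9.98 in ESC, 10.12 in 3-day EB and 10.42 in 7-day EB on the Whole Genome product. EB samples lay below ESC on the first product and above it on the second, and the fitted 7-day difference was -0.60 ± 0.39 (limma adjusted p = 0.400). The 2 arrays of a sample differed by more than 1 log2 unit for 3-day EB replicate 2 on UniSet 20K and for ESC on the Whole Genome product.

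Serpinb6c, a close relative of Serpinb6a, measured 5.99 in the ESC sample, 5.78 and 6.29 in 3-day EB and 5.61 and 5.67 in 7-day EB on UniSet 20K. Its Whole Genome values were 9.05 in ESC, 9.07 in 3-day EB and 8.50 in 7-day EB. The 7-day samples were the lowest on both products, with a 7-day EB minus ESC difference of -0.43 ± 0.21 (limma adjusted p = 0.275). Serpinb9b, of the granzyme inhibitor group, was 5.42 in the ESC sample, 4.53 and 4.86 in 3-day EB and 5.80 and 4.70 in 7-day EB on UniSet 20K. Whole Genome arrays gave 7.81 in ESC, 6.68 in 3-day EB and 8.04 in 7-day EB. Its 3-day samples lay below ESC on both products, 7-day EB replicate 2 lay between the 3-day samples of UniSet 20K, and the 3-day difference from ESC was -0.86 ± 0.35 (limma adjusted p = 0.235). Serpinb1a, an inhibitor of neutrophil elastase and cathepsin G, was 4.94 in the ESC sample, 4.58 and 4.97 in 3-day EB and 5.23 and 4.95 in 7-day EB on UniSet 20K, partly below background. It was 7.59 in ESC, 7.72 in 3-day EB and 8.53 in 7-day EB on the Whole Genome product, highest at 7 days, and the fitted 7-day difference was 0.47 ± 0.25 (limma adjusted p = 0.298).

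Serpina12 encodes vaspin, a serpin of fat tissue. Its level was 5.75 in the ESC sample, 5.64 and 5.87 in 3-day EB and 5.33 and 5.46 in 7-day EB on UniSet 20K, and 8.30 in ESC, 8.27 in 3-day EB and 7.89 in 7-day EB on the Whole Genome product, where 1 ESC array was masked. The 7-day samples lay lowest on both products, with a 7-day EB minus ESC difference of -0.38 ± 0.18 (limma adjusted p = 0.259). Serpina11, whose function is little known, had 5.83 in the ESC sample, 5.75 and 5.65 in 3-day EB and 5.56 and 5.70 in 7-day EB on UniSet 20K and 6.28 in ESC, 7.57 in 3-day EB and 7.09 in 7-day EB on the Whole Genome product. The EB samples lay slightly below ESC on the first and above it on the second, with a fitted 7-day difference of 0.29 ± 0.31 (limma adjusted p = 0.613). Serpina11, Serpina12, Serpine2, Serpinb6a and Serpinb6c were above background by these probes on every array with a usable spot, adult arrays included.

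**Figure D2:**
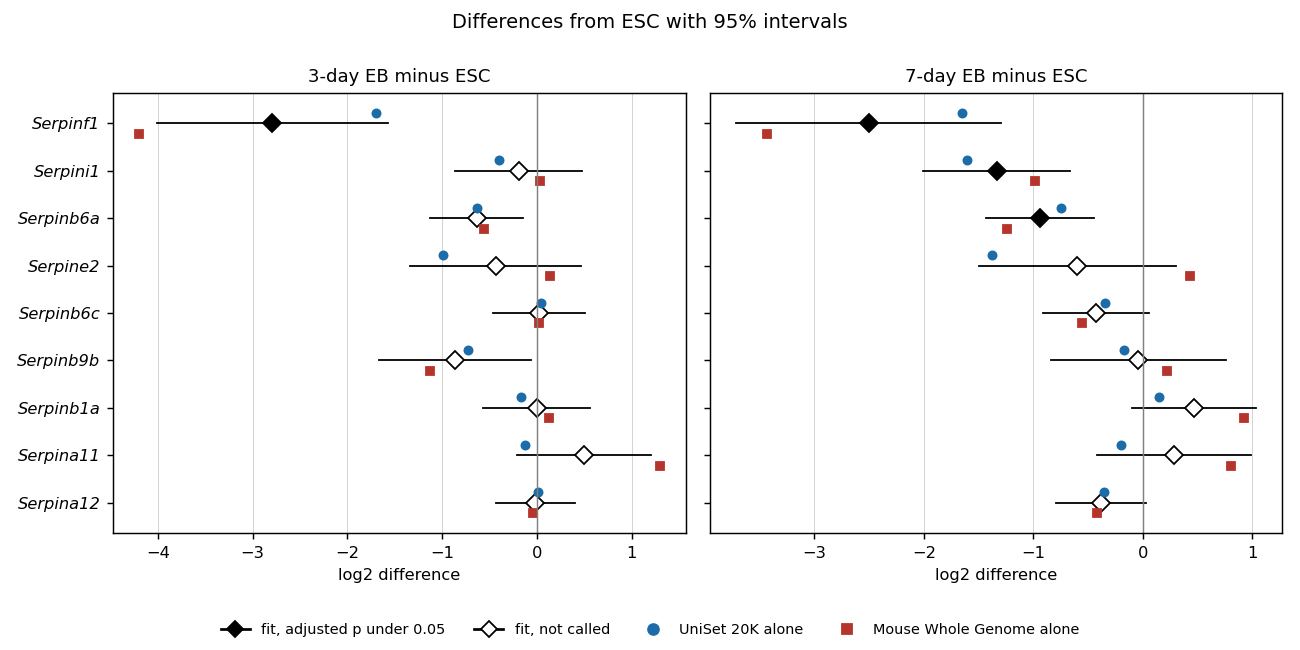
Log2 differences of 3-day EB minus ESC and 7-day EB minus ESC for 9 serpin genes, with diamonds for the fit over both products, lines for its 95% intervals and smaller symbols for each product alone. Filled diamonds mark Serpinf1 on the left and Serpinf1, Serpini1 and Serpinb6a on the right, and among the 7-day differences Serpine2, Serpina11 and Serpinb9b have product values on opposite sides of 0.

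On the Whole Genome product there was 1 sample a group, so differences have no replicate check and no p is given. There, 35 of the 48 members with values were above background on some array and 18 on all 6. For 7-day EB against ESC, 33 probes of 32 members could be compared, and of these probes 6 were at least 2-fold higher in 7-day EB and 3 were at least 2-fold lower. Over all probes measured there, 12.8% were at least 2-fold higher and 9.46% lower. At 3 days 5 of 29 member probes were higher and 6 lower than in ESC (10.4% and 8.89% of all probes), and in 7-day against 3-day EB 7 of 32 were higher and 3 lower (8.30% and 6.73%).

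Serpinb9e and Serpinb9g, of the clade B cluster on chromosome 13, were both above background in 7-day EB on the Whole Genome product and in ESC on neither product. Serpinb9e measured 3.23 and 2.47 in ESC, 5.18 and 2.47 in 3-day EB and 7.37 and 7.49 in 7-day EB on the 2 arrays of each sample. Serpinb9g measured 3.77 and 2.81 in ESC, 3.29 and 2.93 in 3-day EB and 6.20 and 6.45 in 7-day EB. Both were below background on every ESC array and above it on both 7-day arrays, and Serpinb9e was also above it on 1 of the 2 3-day arrays. In 7-day EB, Serpinb9e was at least 10.5-fold and Serpinb9g at least 4.86-fold higher than in ESC, where the bound sets the 7-day mean against the lowest ESC signal above background. On UniSet 20K the same probes were below background on every array, with Serpinb9e highest in 7-day EB replicate 1 at 3.96. Their promoter windows, printed above, differ at 12 of 296 bases, and the copy that gave the signal cannot be told from these probes.

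Serpinb9, the granzyme B inhibitor of cytotoxic and antigen-presenting cells, has a pair of probes that disagreed. One measured 5.65 and 5.04 in ESC, 5.73 and 6.04 in 3-day EB and 7.47 and 7.36 in 7-day EB, a 7-day minus ESC difference of 2.07. The other measured 4.62 and 5.54 in ESC, 3.87 and 2.74 in 3-day EB and 4.43 and 4.62 in 7-day EB, a difference of -0.56. Both 3-day arrays of the second probe were below background. Serpinb6b measured 7.45 and 7.64 in ESC, 6.42 and 6.48 in 3-day EB and 8.53 and 8.46 in 7-day EB on the Whole Genome product and 4.58 in the ESC sample, 2.54 and 3.28 in 3-day EB and 5.67 and 2.87 in 7-day EB on UniSet 20K. It was above background in 7-day EB replicates 1 and 3 and below it in replicate 2, so the 7-day samples did not agree.

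**Figure D3:**
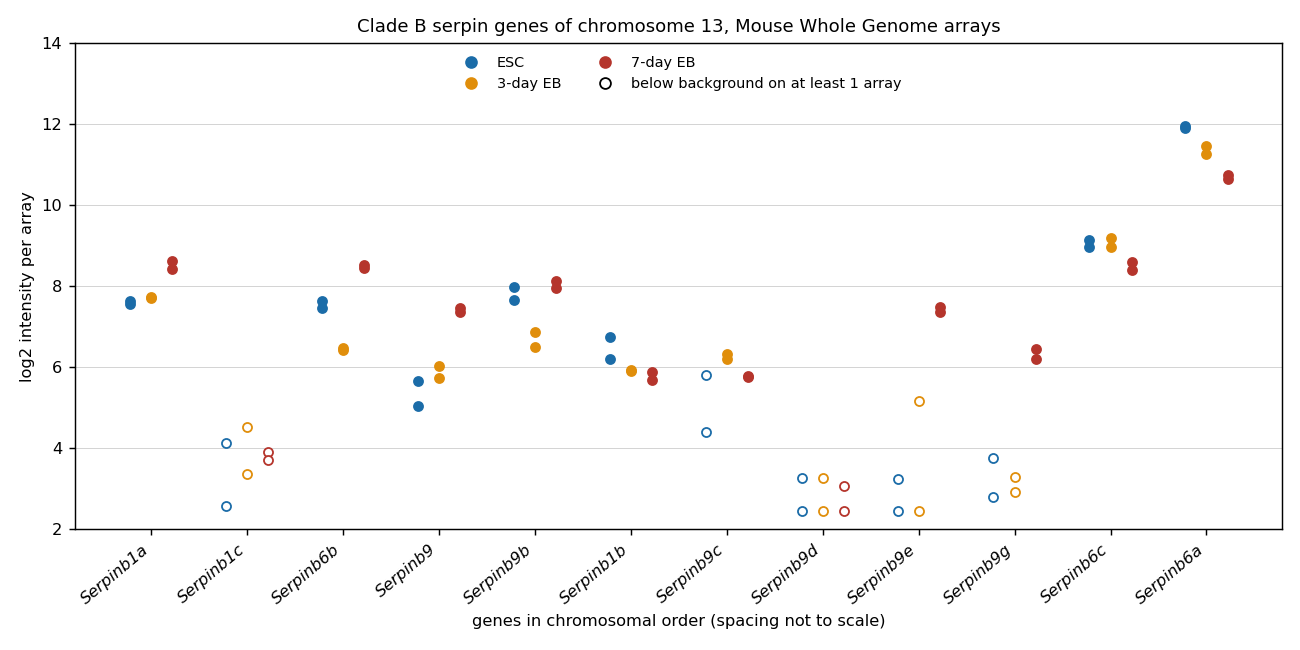
Log2 intensity on each Mouse Whole Genome array for 12 clade B serpin genes of chromosome 13 in chromosomal order, with ESC, 3-day EB and 7-day EB side by side and open circles where at least 1 array of the sample was below background. Serpinb9e and Serpinb9g are filled only in 7-day EB, at 6.20 to 7.49, and Serpinb6a declines over the 3 stages.

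Markers of the first differentiating layers also moved over these samples. The summed intensity of 22 visceral endoderm markers (20 on UniSet 20K, 21 on the Whole Genome product) was 6392 in ESC, 17572 in 3-day EB and 38577 in 7-day EB of the Whole Genome product. On UniSet 20K it was 402 in ESC, 1211 and 600 in 3-day EB and 5094 and 1190 in 7-day EB. That of the trophoblast markers was 2161 in ESC, 12475 in 3-day EB and 14439 in 7-day EB on the Whole Genome product. On UniSet 20K it was 342 in ESC, 1492 and 643 in 3-day EB and 1782 and 754 in 7-day EB. By fit, 4 of 11 visceral endoderm markers, 1 of 3 trophoblast markers and none of 9 parietal endoderm markers tested were higher in 7-day EB than in ESC, and 1 parietal endoderm marker, Nid1, was lower. Of all genes tested, 1.81% were higher in 7-day EB than in ESC and 3.36% lower. The part of these markers in the serpin levels was not tested.

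Several clade A members with no ESC or EB signal, or no probe, on UniSet 20K were above background on the Whole Genome product, to which the next values belong. Serpina1b, an alpha-1-antitrypsin that inhibits neutrophil elastase, measured 5.94 and 4.98 in ESC, 7.17 and 7.48 in 3-day EB and 6.57 and 6.67 in 7-day EB, with 1 ESC array below background. Serpina3m, of the antichymotrypsin group, measured 4.81 and 2.51 in ESC, 5.76 in 3-day EB and 5.35 and 5.57 in 7-day EB, with 1 ESC array below background and 1 3-day array masked. Serpina3f, present on this product only, averaged 6.01 in ESC, 5.05 in 3-day EB and 5.43 in 7-day EB, above background on all 6 arrays. Serpina3a measured 6.52 and 6.93 in ESC, 7.26 and 6.77 in 3-day EB and 5.78 in 7-day EB, with 1 7-day array masked. Serpina3b measured 5.41 and 4.76 in ESC, 4.94 and 5.52 in 3-day EB and 5.42 and 5.49 in 7-day EB. ESC and EB values of Serpina3b lay within 1 log2 unit, and the EB arrays of Serpina1b all stood above both of its ESC arrays. Serpina3m averaged higher in EB and Serpina3f lower, but the ESC arrays of each were farther apart than its 7-day and ESC means. Serpina3f had no UniSet 20K probe, and Serpina1b, Serpina3a, Serpina3b and Serpina3m were below background on every ESC and EB array there.

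Among inhibitors of the clotting and plasmin systems on the Whole Genome product, Serpinc1 (antithrombin) measured 4.21 and 4.51 in ESC, 5.07 and 4.85 in 3-day EB and 5.31 and 4.97 in 7-day EB and was below background there in ESC alone. On UniSet 20K it was below background on every ESC and EB array. Serpinf2 (alpha-2-antiplasmin), the neighbour of Serpinf1, measured 5.38 and 5.93 in ESC, 6.24 and 5.99 in 3-day EB and 6.65 and 6.75 in 7-day EB, a 7-day minus ESC difference of 1.05. The 7-day arrays of Serpinf2 stood above the other arrays. Serpinb2 (plasminogen activator inhibitor 2) measured 4.82 and 5.23 in ESC, 2.47 in 3-day EB and 3.19 and 3.63 in 7-day EB, above background in ESC alone, with 1 3-day array masked. Serpind1 (heparin cofactor II) was below background on all arrays.

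Serping1 encodes C1 inhibitor, which blocks the first proteases of the complement cascade. On the Whole Genome product it measured 8.32 and 8.61 in ESC, 8.91 and 9.02 in 3-day EB and 8.28 and 8.38 in 7-day EB, above background throughout and within 1 log2 unit. Its UniSet 20K probe was masked on every array except that of adult replicate 1, where it measured 7.09. Its targets C1ra, C1s1 and Masp1 were measured on both products. C1ra and C1s1 encode the serine proteases of the first complement component and Masp1 one of the lectin pathway. C1ra was 8.67 in ESC, 5.34 in 3-day EB and 5.31 in 7-day EB on the Whole Genome product and fell by 2.93 on the log2 scale in 7-day EB (SE 0.26, limma adjusted p = 0.00314). C1s1 was 9.65 in ESC, 6.53 in 3-day EB and 6.31 in 7-day EB there and Masp1 9.42 in ESC, 3.87 in 3-day EB and 6.64 in 7-day EB, with 7-day differences from ESC of -3.36 ± 0.34 and -3.44 ± 0.59 (limma adjusted p = 0.00371 and 0.0204).

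Other members gave signal mainly on the Whole Genome product, and values are from it where no product is named. Serpinb5 (maspin), a clade B member without inhibitory action, measured 4.88 and 3.26 in ESC, 6.42 and 6.16 in 3-day EB and 4.63 and 4.44 in 7-day EB, highest at 3 days, with 1 ESC array below background. Serpini2, known from pancreas, measured 5.70 and 5.02 in ESC, 6.40 and 6.74 in 3-day EB and 5.78 and 5.73 in 7-day EB. Serpinb9c measured 5.81 and 4.40 in ESC, 6.20 and 6.33 in 3-day EB and 5.78 and 5.77 in 7-day EB, with 1 ESC array below background. Serpinb3a, of the squamous cell carcinoma antigen group, measured 6.90 and 8.18 in ESC, 7.32 and 7.31 in 3-day EB and 7.06 and 6.91 in 7-day EB, with ESC arrays more than 1 log2 unit apart. On UniSet 20K Serpinb3a measured 4.55 in the ESC sample, 4.78 and 5.16 in 3-day EB and 4.73 and 4.60 in 7-day EB, above background on both arrays in 3-day EB replicate 2 and 7-day EB replicate 1 only. Serpinb1b measured 6.21 and 6.74 in ESC, 5.92 and 5.90 in 3-day EB and 5.68 and 5.88 in 7-day EB and Serpinb8 5.45 and 5.43 in ESC, 5.05 and 5.32 in 3-day EB and 5.51 and 5.46 in 7-day EB. Serpina10, which inhibits clotting factor X with protein Z, measured 4.73 and 5.49 in ESC, 5.57 and 5.89 in 3-day EB and 5.13 and 5.10 in 7-day EB by 1 probe, while its other probe was above background on 1 of 6 arrays. Serpinb12 measured 5.07 and 5.39 in ESC, 4.44 and 4.22 in 3-day EB and 4.89 and 4.86 in 7-day EB, with both 3-day arrays below background. Serpina9 was above background only in 7-day EB, at 3.87 and 4.32. Serpina1e, Serpina4-ps1 and Serpinb1c were each above background on 1 of 6 arrays, and Serpina1c, Serpina1f, Serpina3n and Serpina5 on none. On UniSet 20K, Serpini2 was above background on 1 ESC array and Serpinb1b on 1 7-day array, while Serpina9, Serpinb8, Serpinb9c, Serpinf2 and Serpinb2 were below it throughout.

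One UniSet 20K spot stood apart. Serpinb12 read 10.43 on 1 array of 3-day EB replicate 1 and 2.16, below background, on the other array of the same sample. No other ESC or EB array of that product had it above background.

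Partners of the serpins were read through lists. Of 36 target proteases 9 were tested, 4 were lower in 7-day EB than in ESC (C1ra, C1s1, Masp1 and Htra1) and none was higher. Of all genes tested, 3.36% were lower and 1.81% higher there. The median of the 9 proteases was -1.53, against 0.04 over all genes tested. In 3-day EB C1ra, C1s1 and Masp1 were lower, against 2.28% of all genes tested, and the median was -1.24. Of 14 partners and cofactors 2 were tested. Lrp1, the receptor that clears serpin and protease complexes, measured 11.47 in ESC, 8.65 in 3-day EB and 9.57 in 7-day EB on the Whole Genome product and changed by -1.87 ± 0.41 in 7-day EB (limma adjusted p = 0.0418). Sdc4, a heparan sulfate proteoglycan, changed by 1.87 ± 0.49 (limma adjusted p = 0.0729), which did not pass. C1ra, C1s1, Masp1, Htra1 and Lrp1 fell in the samples in which the fibroblast markers named above fell, and the part of the feeders was not tested.

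Of 23 protease inhibitors outside the family, 20 had a probe and 8 were tested. Timp2 and Timp3, inhibitors of matrix metalloproteinases, were lower in 7-day EB than in ESC, with differences of -2.99 ± 0.29 and -2.84 ± 0.26 (limma adjusted p = 0.00325 and 0.00314). Timp3 was also on the list of fibroblast markers. Wfdc2, of the whey acidic protein family, was higher in 3-day EB than in ESC by 2.16 ± 0.38 (limma adjusted p = 0.0285). Spink1, a trypsin inhibitor, differed by 4.92 ± 1.16 at 7 days without passing the test (limma adjusted p = 0.0528). The median over the 8 was -0.01 at 7 days. The 13 plasma serpins with a probe gave 1 tested member, Serpinf1, and none of 9 targets of TGF-beta and hypoxia tested was called in any of the 3 ESC and EB comparisons by limma. At an unadjusted p under 0.05 there were 2 of the 9 in 7-day EB against ESC, 4 in 3-day EB against ESC and 4 in 7-day against 3-day EB.

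Relative to adult tissue, Serpinb6a, Serpinb6c, Serpinb9b, Serpinf1 and Serpina11 were higher in ESC and in both EB stages, while Serpinb1a and Serpina12 were lower in all 3. The clade A genes Serpina1b, Serpina1d, Serpina1e, Serpina1f and Serpina3a and Serpinb9 were below background on every ESC and EB array of UniSet 20K. Their bounds put them lower by more than 1-fold in all 3. On the Whole Genome product, Serpina1b and Serpina3a were above background on 5 of 6 arrays and the tested Serpinb9 probe on 4. Serpina1c, Serpina3n and antithrombin (Serpinc1) were called lower in all 3 but were below background on the ESC and EB arrays of UniSet 20K. In ESC and 3-day EB the adult level of each would not have stood above background there, so those calls give no fold. Of the 25 members tested on UniSet 20K, 5 were higher in ESC than in adult tissue and 11 lower, 5 higher and 14 lower in 3-day EB, and 5 higher and 13 lower in 7-day EB. Of all 10062 genes tested, 52.0%, 62.2% and 61.8% were called in these comparisons, for ESC (25.2% as higher and 26.7% as lower), 3-day EB (30.6% and 31.6%) and 7-day EB (29.5% and 32.3%), so a share of the members near those values is no result about them. Of the members called lower, 9 of 11 in ESC, 12 of 14 in 3-day EB and 11 of 13 in 7-day EB were below background on all UniSet 20K arrays of that group. The comparisons share the adult samples. The count of members higher was 3 without ESC replicate 1 (3-day and 7-day EB). Without that sample, Serpinf1 and Serpinb9b did not pass the filter and were not tested. The count was 3 without 7-day EB replicate 2 (7-day EB) and, without adult replicate 2, 2 in 3-day EB and 3 in 7-day EB. The 23 members above background on both adult arrays include 12 that were above it on no ESC or EB array of UniSet 20K. Members that passed the filter only through adult tissue could hardly be called higher, though some, such as Serpina5, were not called. Of the members called higher, Serpinf1 and Serpinb9b passed it only through ESC. Where a member was below background in ESC and EB, its limma p-value tests those dim values and not the bound. Adult arrays had an export date of their own, which cannot be told apart from the tissue. Of the 13 plasma serpins with a probe 7 were tested, of which 1 was higher and 5 lower in ESC, and 1 was higher and 6 lower in 3-day EB and in 7-day EB. In the ESC comparison 1 sample stands for ESC and is assumed to vary like the others. With each array centred on its median in place of quantile normalization, the median of all genes was -0.36 to -0.49 in these comparisons, and relative to adult tissue 4 members were higher and 13 lower in ESC, 4 and 16 in 3-day EB, and 3 and 17 in 7-day EB. On that scale 32.5 to 35.2% of all calls were higher, against 47.7 to 49.2% after quantile normalization. An offset of 16 in place of the floor brought members below background closer to adult tissue, Serpina1b in ESC for instance to -4.33 against -6.58, and ended the 3-day call of Serpina10 (limma adjusted p = 0.0600).

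Among the genes higher than in adult tissue, Serpinb6c measured 5.99 in ESC, 5.78 and 6.29 in 3-day EB, 5.61 and 5.67 in 7-day EB and 3.44 and 3.48 in adult tissue. Its difference was 2.18 ± 0.26 for 7-day EB minus adult tissue (limma adjusted p = 0.000322). The ESC and EB samples did not overlap the adult ones. Serpinb6a measured 7.31 and 7.09 in adult tissue, and 7-day EB stood above it by 1.34 ± 0.24 (limma adjusted p = 0.00227), or by 0.55 with median centring (limma adjusted p = 0.0862). Serpinb9b measured 3.27 and 1.83 in adult tissue, the second value at the floor, and 7-day EB stood above it by 2.70 ± 0.53 (limma adjusted p = 0.00359). Its 3-day difference was 1.42 without adult replicate 2 (limma adjusted p = 0.0801), against 2.14 with it. Serpinb9b was above background on 1 of 4 arrays of 3-day EB, 3 of 4 of 7-day EB and 1 of 2 of adult tissue. Its 3-day mean of 4.69 lay within the range of the lowest signals above background on ESC and EB arrays (4.11 to 4.86).

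Serpinf1 measured 3.56 and 3.37 in adult tissue, of which only the first was above background. ESC stood above it by 2.89 ± 0.43, 3-day EB by 1.19 ± 0.35 and 7-day EB by 1.24 ± 0.35 (limma adjusted p = 0.00142, 0.0202 and 0.0173). Serpinf1 was above background on 1 of 4 arrays of 3-day EB and 3 of 4 of 7-day EB. The lowest signal above background on ESC and EB arrays (4.11 to 4.86) exceeded both adult values. The EB differences therefore rest partly on EB values at background. The 3-day and 7-day calls were lost without either adult sample (limma adjusted p of 0.0731 to 0.117 for 3-day EB and 0.0669 to 0.106 for 7-day EB). The 3-day call was also lost without 3-day EB replicate 2 (limma adjusted p = 0.108, for a difference of 0.71) and the 7-day call without 7-day EB replicate 2 (limma adjusted p = 0.0746). Serpina11 measured 5.09 and 4.67 in adult tissue and was higher in ESC by 0.95 ± 0.31 (limma adjusted p = 0.0378), a call that median centring ended at 0.49 (limma adjusted p = 0.241). Its calls in 3-day and 7-day EB ended likewise, at 0.22 and 0.27. Its ESC and 7-day calls were also lost without any 1 of the EB samples or adult replicate 2, and its 3-day call without either 3-day sample or adult replicate 2 (limma adjusted p from 0.0519 to 0.154 over these).

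**Figure D4:**
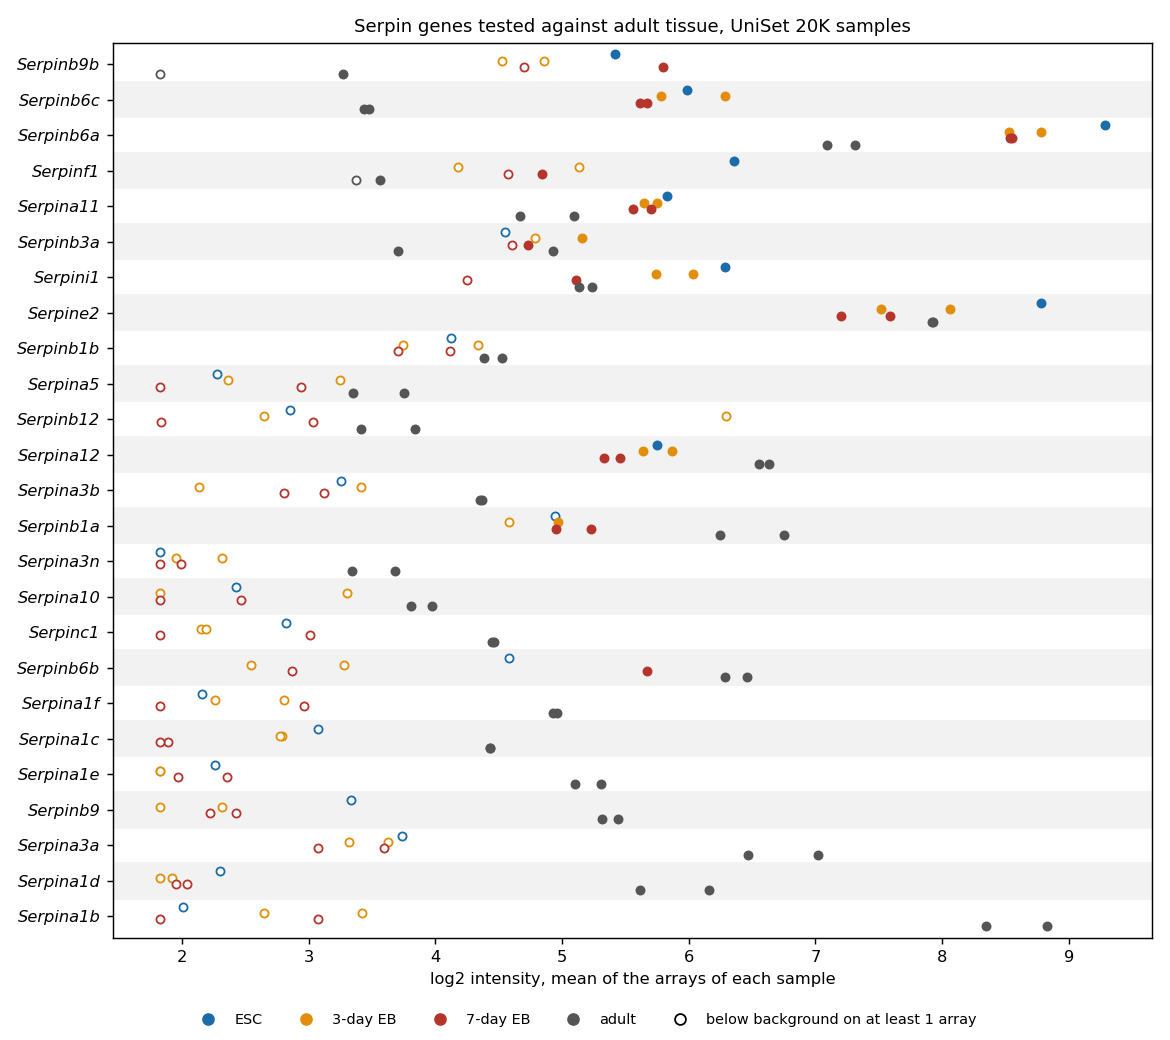
Log2 intensity in each UniSet 20K sample for the 25 serpin genes tested against adult tissue, ordered by the difference of 7-day EB minus adult tissue, with ESC, 3-day EB, 7-day EB and adult tissue from top to bottom in each band and open circles where at least 1 array was below background. Serpina1b and Serpina1d at the bottom are filled only in adult tissue, and levels compare only within a band.

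Serpina1b and Serpina1d, alpha-1-antitrypsin genes, were above background in adult tissue alone on UniSet 20K. Serpina1b measured 2.01 in ESC, 3.42 and 2.65 in 3-day EB, 1.83 and 3.07 in 7-day EB and 8.83 and 8.35 in adult tissue. All 10 ESC and EB arrays were below background, and the level was at least 16.4-fold lower in ESC, 14.6-fold in 3-day EB and 19.7-fold in 7-day EB (limma adjusted p = 0.000157, 7.05e-05 and 4.39e-05). Serpina1d measured 2.30 in ESC, 1.83 and 1.93 in 3-day EB, 1.95 and 2.04 in 7-day EB and 6.16 and 5.62 in adult tissue. It was at least 3.04-fold lower in 7-day EB (limma adjusted p = 3.07e-05). Serpina1e measured 2.26 in ESC, 1.83 and 1.83 in 3-day EB, 1.97 and 2.36 in 7-day EB and 5.31 and 5.10 in adult tissue, and was at least 1.89-fold lower in 7-day EB (limma adjusted p = 6.38e-05). Both were below background on every ESC and EB array of UniSet 20K. The p-values of Serpina1b, Serpina1d and Serpina1e test those dim values and not the bounds, and each gene passed the filter only through adult tissue.

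Serpina1c was read by a probe that the files describe as Serpina1a and whose accession RefSeq assigns to Serpina1c. It measured 3.08 in ESC, 2.79 and 2.77 in 3-day EB, 1.89 and 1.83 in 7-day EB and 4.43 and 4.43 in adult tissue. Its second probe was below background on all arrays, adult ones included. Serpina1f, a member of that gene group, measured 2.16 in ESC, 2.26 and 2.81 in 3-day EB, 2.97 and 1.83 in 7-day EB and 4.93 and 4.96 in adult tissue. For Serpina1c the 7-day level was at least 1.10-fold lower, and for Serpina1f at least 1.58-fold lower (limma adjusted p = 7.89e-05 and 0.00120). In ESC and 3-day EB the call of Serpina1c allowed no bound above 1-fold.

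Of the antichymotrypsin group, Serpina3a measured 3.73 in ESC, 3.32 and 3.63 in 3-day EB, 3.07 and 3.60 in 7-day EB and 7.02 and 6.47 in adult tissue. It was below background on all ESC and EB arrays and at least 5.49-fold lower in 7-day EB (limma adjusted p = 9.52e-05). Serpina3n measured 1.83 in ESC, 2.32 and 1.96 in 3-day EB, 1.99 and 1.83 in 7-day EB and 3.69 and 3.34 in adult tissue. The adult level of Serpina3n lies under the lowest signal above background of the ESC and EB arrays, so its calls as lower give no fold. Serpina3b measured 3.26 in ESC, 3.42 and 2.14 in 3-day EB, 3.12 and 2.81 in 7-day EB and 4.36 and 4.37 in adult tissue and was called in 3-day and 7-day EB (limma adjusted p = 0.0123 and 0.0207), not in ESC. Its calls were lost without either adult sample (limma adjusted p of 0.0738 and 0.0815 for 3-day EB), without 7-day EB replicate 2 for 7-day EB, and its 3-day difference was -0.95 without 3-day EB replicate 2, against -1.59 with it.

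Serpina10 measured 2.43 in ESC, 1.83 and 3.30 in 3-day EB, 1.83 and 2.47 in 7-day EB and 3.81 and 3.98 in adult tissue. It was called in 3-day and 7-day EB with no fold bound (limma adjusted p = 0.0449 and 0.0157), and both calls were lost without either adult sample. The 3-day call was also lost without 3-day EB replicate 1, at -0.59 against -1.33 with it, the difference was -2.06 without 3-day EB replicate 2, and the 7-day call was lost without 7-day EB replicate 1. The other Serpina10 probe was below background on every UniSet 20K array and lowest in adult tissue. It measured 2.30 in ESC, 2.72 and 2.79 in 3-day EB, 3.10 and 3.58 in 7-day EB and 2.20 and 2.02 in adult tissue. Serpinc1, for antithrombin, measured 2.82 in ESC, 2.15 and 2.19 in 3-day EB, 3.01 and 1.83 in 7-day EB and 4.46 and 4.45 in adult tissue. It was below background on ESC and EB arrays, at least 1.12-fold lower in 7-day EB (limma adjusted p = 0.00288), and its ESC call was lost without either adult sample (limma adjusted p = 0.0910 and 0.0976).

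Serpina12, measured in all samples, was 6.55 and 6.64 in adult tissue. It was lower in 7-day EB by 1.20 ± 0.24 on the log2 scale (limma adjusted p = 0.00349). Its ESC difference of -0.84 lost its call without any 1 of the 6 other samples, and its 3-day difference of -0.84 without 3-day EB replicate 1 or adult replicate 2. With median centring these 2 differences were -1.41 and -1.57, both called.

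Of clade B, Serpinb9 measured 3.33 in ESC, 2.32 and 1.83 in 3-day EB, 2.23 and 2.43 in 7-day EB and 5.32 and 5.44 in adult tissue by the probe that stood for the gene. It was below background in ESC and EB and at least 2.13-fold lower in 7-day EB (limma adjusted p = 7.74e-05). The other probe was below background on all these arrays, adult ones included. Serpinb1a measured 4.94 in ESC, 4.58 and 4.97 in 3-day EB, 5.23 and 4.95 in 7-day EB and 6.75 and 6.25 in adult tissue with a 7-day EB minus adult tissue difference of -1.41 ± 0.29 (limma adjusted p = 0.00418). Serpinb6b measured 6.46 and 6.29 in adult tissue and was called lower in 3-day EB alone, at least 3.14-fold (limma adjusted p = 0.00722), a call that was lost without either adult sample (limma adjusted p = 0.0672 and 0.0625).

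Of the members not called against adult tissue, Serpini1 measured 5.24 and 5.13 in adult tissue, within the range of its EB samples. Serpine2 measured 7.93 and 7.92 there, also within that range. Serpina5, which inhibits activated protein C, measured 2.28 in ESC, 2.37 and 3.25 in 3-day EB, 1.83 and 2.94 in 7-day EB and 3.35 and 3.76 in adult tissue, and Serpinb1b 4.12 in ESC, 3.75 and 4.34 in 3-day EB, 4.11 and 3.70 in 7-day EB and 4.52 and 4.38 in adult tissue. Serpinb3a had 4.93 and 3.71 and Serpinb12 3.84 and 3.41 in adult tissue. Serpina3m and Serpinb5 were above background on 1 of the 2 adult arrays.

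The adult sample carried markers of more than 1 tissue. Of the liver markers, 11 of 13 tested were lower in 7-day EB than in adult tissue and none was higher. In that comparison 32.3% of all genes tested were called lower and 29.5% higher. Markers that passed the filter only through adult tissue could hardly be called higher. Their summed intensity was 268 in ESC, 242 and 402 in 3-day EB and 352 and 435 in 7-day EB, against 3799 and 3141 in adult tissue. In each ESC and EB sample 1 or 2 of 18 liver markers were above background on every array (Ass1, and Tdo2 in 7-day EB replicate 1), against 14 and 13 in adult tissue, and Alb was below background in all of them. Of the brain markers 4 of 8 and of the immune markers 4 of 7 tested were lower in 7-day EB, while 1 and 2 were higher. Of 24 fibroblast markers tested 12 were lower in 7-day EB than in adult tissue and 3 higher. The part of each tissue in the serpin levels was not tested.

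Finally, 10 members were below background on every array with a usable spot: Serpina3c, Serpina6, Serpinb3b, Serpinb3c, Serpinb7, Serpinb9d, Serpinb10, Serpinb11, Serpinb13 and Serpind1. They include corticosteroid-binding globulin (Serpina6) and skin serpins (Serpinb7 and Serpinb13). Their signals were not detectable at these arrays' background, which does not show that the genes were silent.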

How the data were processed

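Single-colour CodeLink oligonucleotide arrays measured RNA of ESC, EB and adult tissue on 18 arrays of 10 samples. Arrays whose titles give the same group and leading number count as 1 sample. The authors' deposited raw intensity of each spot, made with scanner software of version 4.1.0.29054 (per the file headers), goes below 0 and so has background already subtracted. The deposited median-normalized intensity and the authors' normalized matrix, whose 6 columns without a matching sample were left out, served as alternatives.

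Saturated spots were kept, and those flagged irregular, contaminated or masked were left out. Probes were averaged over spots, quantile-normalized within a product, floored at the median negative control (3.56 on UniSet 20K, 5.52 on the Whole Genome product), put on a log2 scale and averaged over a sample's arrays. Normexp was not applied to the corrected intensities. A probe passed the filter when it was above background on every array of at least 1 group and had a value in every sample, and the brightest probe stood for its gene. Of the gene probes, 22974 had 1 symbol, 166 several and 11868 none.

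limma 3.58.1 (R 4.3.3) fitted 8 samples for ESC and EB with product as a term, and the 7 UniSet 20K samples for the adult comparisons, with Benjamini-Hochberg adjusted p under 0.05 as a call, and was tested on simulated data. A bound sets the brighter group's mean against the lowest signal above background on the dimmer group's arrays, or the dim probe's own level where that is higher. The number of arrays limits the precision. Alternatives were other normalization, an offset of 16 in place of the floor, no filter, every probe tested, a replicate block, export date as a block, UniSet 20K alone, leaving out each sample and, chosen after seeing the data, the authors' matrix.

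The members and the lists (target proteases, partners and cofactors, other protease inhibitors, plasma serpins, TGF-beta and hypoxia targets, and markers of pluripotency, visceral and parietal endoderm, trophoblast, feeder fibroblasts, liver, brain and immune cells) were chosen with earlier results of these data known. One member is not reported here, though it stays in the counts. The other members were accounted for, with values per sample for those called or above background on all arrays of a group. Of lists, up to 4 members with the smallest p were named for partners, proteases and other inhibitors, and Col6a2, Alb and other markers were named after their values were seen.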

Additional observations from a re-analysis of the deposited data

How the results depend on the processing

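In 7-day EB against ESC and in 3-day EB against ESC, limma called 3 and 1 members. The counts were 0 and 0 without the filter on dim probes, with export date as a block and on UniSet 20K alone, and 1 and 0 with the replicate block. Leaving out 1 sample at a time gave 0 to 2 members for 7-day EB against ESC, 0 to 2 for 3-day EB against ESC and 0 to 2 for 7-day against 3-day EB. Over all genes, 325 were called in 7-day EB against ESC and 142 without the filter, 155 with the replicate block, 86 with the export date and 1 on UniSet 20K alone. In 3-day EB against ESC 189 were called, and 87, 67, 119 and 0 under these settings. For 7-day EB against ESC the replicate block gave Serpini1 a limma adjusted p of 0.0388, Serpinf1 0.0739 and Serpinb6a 0.233. Numbers 1 and 2 recur in every group and 3 in both EB groups. On UniSet 20K, the difference of replicate 1 minus 2 correlated across genes at 0.232 between 3-day and 7-day EB. It correlated at 0.025 between 3-day EB and adult tissue and at 0.057 between 7-day EB and adult tissue. The labels do not say whether the numbers pair samples, and the higher value between the EB stages does not settle it. The main fit did not pair them, so its EB calls rest on treating these samples as unpaired. Against adult tissue, the member count of each of the 3 comparisons stayed within 1.5 times under all settings that gave a value, and leaving out ESC replicate 1 gave none for ESC. Of 1453 values of single members under the alternatives, 1262 kept direction and side of the threshold, 108 lost a call, 48 gained one, 35 changed sign without a call and 0 reversed a call. Signal over background limits the values: 12 of the 23 members measured on both adult arrays were above it on no UniSet 20K array of ESC or EB.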

Other observations

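Serpinh1, which carries a serpin name and was left out of the family above, encodes the collagen chaperone of the endoplasmic reticulum. On UniSet 20K it measured 4.88 in ESC, 6.90 and 4.81 in 3-day EB, 7.83 and 6.31 in 7-day EB and 3.00 and 3.33 in adult tissue, and both adult values were below background. On the Whole Genome product the same probe measured 10.86 in ESC, 11.80 in 3-day EB and 12.21 in 7-day EB. Every 7-day sample stood above the ESC sample of its product, and the fitted 7-day EB minus ESC difference was 1.86 ± 0.64 (limma adjusted p = 0.142), which did not pass the test. Relative to adult tissue it was at least 6.46-fold higher in 3-day EB (limma adjusted p = 0.0140) and at least 14.9-fold higher in 7-day EB (limma adjusted p = 0.00262), where 61.8% of all genes were called. It passed the filter there only through 7-day EB, and the p-values test adult values below background and not the bounds.

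Pdcd10, the divergent neighbour of Serpini1, measured 2.87 and 2.97 in adult tissue, below background. It was at least 4.18-fold higher in ESC, 4.34-fold in 3-day EB and 4.89-fold in 7-day EB than in adult tissue (limma adjusted p = 0.000739, 0.000156 and 0.000105). Of all genes tested, 25.2%, 30.6% and 29.5% were called higher in these comparisons. Pdcd10 passed the filter only through ESC and 7-day EB, and the p-values test adult values below background and not the bounds.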
